A study of Mus musculus with 2 samples.

Results

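The genes described here are 30 genes of cholesterol and fatty acid synthesis, taken by symbol from the 27998 genes counted in both libraries. They comprise 8 genes of the mevalonate and isoprenoid steps, 11 genes of the steps from the making of squalene to cholesterol, 5 regulators, 1 sterol transport gene and 5 fatty acid synthesis genes. All 30 symbols were found, and 25 were measured, meaning at least 20 unique molecular identifiers (UMIs, each standing for 1 captured RNA molecule) over both libraries. Lss (6 uninjured and 7 injured UMIs), Hsd17b7 (4 and 3), Tm7sf2 (2 and 5), Fads2 (0 and 1) and Fasn (5 and 13) fell under that minimum.

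Cells were sorted for the red fluorescent protein tdTomato from spinal cords of mice that carried Cx3cr1-CreER::Rosa26-tdTomato (background strain C57BL/6J). A tamoxifen-dependent recombinase is made from the Cx3cr1 locus, which is active in microglia and other macrophages, so that tdTomato stays on in the cells that carried it at the time of tamoxifen and in their descendants. Both libraries came from mice given 2 doses of 1 mg 4-hydroxytamoxifen in postnatal week 4, and the cords were taken 4 weeks after tamoxifen. The uninjured library is an age-matched control, and the injured library was taken on day 5 after lysolecithin, a lipid that destroys myelin. How many animals were pooled, and of which sex, is not stated in the labels. Each group has 1 library, so differences could not be checked against replicates, no test was made and every value describes these 2 libraries. All intervals are exact 95% intervals that cover counting error only.

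Cholesterol is built from acetyl-CoA through mevalonate and isoprenoid units to squalene, which is closed into a ring and trimmed to cholesterol. The transcription factor SREBP2 (Srebf2) drives these enzymes when sterols are scarce, SREBP1 (Srebf1) chiefly drives fatty acid genes, SCAP escorts both, and the INSIG proteins hold the complex back when sterols are plentiful. Insig1 is itself a SREBP target. Adult brain and cord make their own cholesterol, mostly in glia, and microglia that take up myelin receive a large sterol load.

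The kept cells numbered 695 uninjured and 577 injured, with 2093084 and 3095511 UMIs and medians of 3003 and 4396 UMIs per cell. The libraries shared 0 cell barcodes. Microglia markers summed to 42292 uninjured and 30494 injured CPM (UMIs per 1000000 UMIs of a library), with none of the 10 genes at 0 in either. Border macrophage markers summed to 1332 and 509.8 CPM, oligodendrocyte markers to 222.6 and 124.4 CPM, endothelial markers to 110.8 and 24.9 CPM and oligodendrocyte precursor markers to 0.956 and 24.9 CPM. Neutrophil markers were at 0 uninjured and 2 injured UMIs. The log2 ratio of CPM, injured over uninjured, had a median of −0.15 over 9066 measured genes, which is the level against which the ratios below can be read.

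Promoters are shown for Insig1 and Sc5d, 2 of the 3 genes whose ratio lay farthest from 0 by the nearer bound of its interval. The third, Scd2, is named only. Hmgcs1 is also shown, chosen after its values were seen because its level, with all barcodes kept, was alike in both libraries. Its log2 ratio was 0.04 with all barcodes and −0.34 (−0.85 to 0.18) without barcodes with other cell type markers. Each line gives the 250 bases before the RefSeq start on GRCm38.p6, from 5′ to 3′ on the gene's strand. Capitals mark matches on either strand to CCAAT, to the GC box GGGCGG, to the E-box CACGTG and to TCACNCCAC, a consensus of the sterol regulatory element to which SREBPs bind. The gene model of Insig1 in GENCODE begins inside the window shown.
Insig1: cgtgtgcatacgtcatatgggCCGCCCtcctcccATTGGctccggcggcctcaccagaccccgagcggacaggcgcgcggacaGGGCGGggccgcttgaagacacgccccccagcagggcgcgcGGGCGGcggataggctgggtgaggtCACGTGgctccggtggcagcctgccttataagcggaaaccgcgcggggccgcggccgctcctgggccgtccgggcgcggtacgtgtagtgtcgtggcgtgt
Sc5d: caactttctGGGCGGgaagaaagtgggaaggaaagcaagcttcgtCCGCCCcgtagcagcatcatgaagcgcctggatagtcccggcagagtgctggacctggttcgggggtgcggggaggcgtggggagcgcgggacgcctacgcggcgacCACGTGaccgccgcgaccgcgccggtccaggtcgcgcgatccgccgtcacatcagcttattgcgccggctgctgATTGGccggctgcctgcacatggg
Hmgcs1: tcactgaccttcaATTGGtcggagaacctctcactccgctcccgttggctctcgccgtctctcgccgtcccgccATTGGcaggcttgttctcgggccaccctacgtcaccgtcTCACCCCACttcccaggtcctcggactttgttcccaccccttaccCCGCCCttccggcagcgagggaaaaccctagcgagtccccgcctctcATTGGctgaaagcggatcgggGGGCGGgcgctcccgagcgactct

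The Insig1 window lies at chr5:28071162-28071411 on the plus strand, the Sc5d window at chr9:42264301-42264550 on the minus strand and the Hmgcs1 window at chr13:119690101-119690350 on the plus strand. The Insig1 window held 1 CCAAT, 3 GC boxes and 1 E-box, the Sc5d window 1, 2 and 1, and the Hmgcs1 window 3, 2 and 0. Among the windows printed TCACNCCAC matched once, in Hmgcs1. The RefSeq table matched 24 of the 30 genes. Of these, 21 had a CCAAT, against 40.5% of the 6984 measured genes in the table and 37.5% of all its 27025 genes. The GC box was in 20 of the 24, against 65.7% and 35.4%, and the E-box in 6 (Dhcr7, Insig1, Sc5d, Hsd17b7, Scap and Elovl5), against 10.7% and 6.86%. TCACNCCAC was in 1 of 24 (Hmgcs1), against 1.33% and 1.22%. It was absent from Ebp, whose level was also alike in both libraries. No motif overlapped another in the windows printed. These are matches of letters only.

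Sterol enzymes were slightly lower in the injured library as a sum, with most single genes near the middle of all genes. The 19 enzymes held 912 uninjured UMIs (435.7 CPM, 407.9 to 464.9) and 1079 injured UMIs (348.6 CPM, 328.1 to 370.0), a log2 ratio of −0.32 (−0.45 to −0.19). Of the 16 measured enzymes 2 were at least 2-fold lower and 0 at least 2-fold higher, with a median log2 ratio of −0.23. Over all 25 measured genes 5 were at least 2-fold lower (Insig1, Idi1, Sc5d, Srebf2 and Stard4), or 20%, against 11.5% of all measured genes, and 1 was at least 2-fold higher (Scd2), against 7.22%. The interval lay wholly below 0 for 6 genes (the same 5 and Msmo1), against 25.8% of all measured genes, and wholly above 0 for 1, against 17.1%. The members' median was −0.32. So 6 of 25 intervals below 0 is close to the share of all genes, and 1 of 25 above 0 is a smaller share than theirs.

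**Figure D1:**
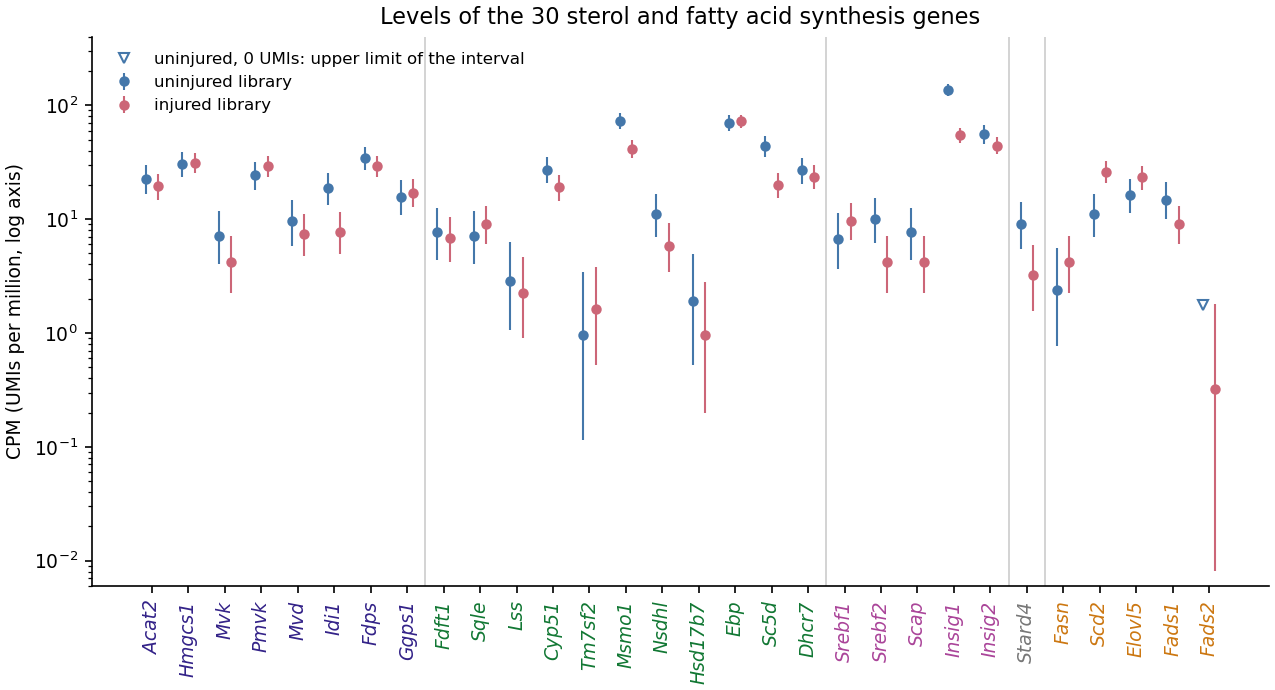
CPM of each of the 30 genes (log axis) in the uninjured (blue) and injured (red) library, ordered by role from the mevalonate steps to the fatty acid genes, with exact 95% Poisson intervals. Insig1 had the highest level in the uninjured library at 136.6 CPM and lay at 54.6 CPM in the injured one, while Ebp lay at 70.2 and 72.4 CPM.

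The early steps were nearly level between the libraries with all barcodes kept. Their 8 genes, all measured, summed to 341 and 451 UMIs, or 162.9 and 145.7 CPM (log2 −0.16, −0.37 to 0.05). Without 7 injured barcodes with oligodendrocyte precursor markers, described below, the sum was at −0.36 (−0.58 to −0.15). With all barcodes Acat2, the cytosolic thiolase that starts the chain, had 47 and 60 UMIs, and Hmgcs1, the synthase that makes HMG-CoA, had 64 and 97 UMIs (30.6 and 31.3 CPM). The 2 genes had log2 ratios of −0.21 and 0.04, and both intervals spanned 0. The kinases Mvk (15 and 13 UMIs) and Pmvk (51 and 91 UMIs) and the decarboxylase Mvd (20 and 23 UMIs) likewise had intervals that spanned 0.

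Idi1, which isomerises the 5-carbon isoprenoid unit, was the exception among them. It had 39 uninjured and 24 injured UMIs (18.6 and 7.75 CPM), a log2 ratio of −1.26 (−2.06 to −0.50). The intervals of its neighbours in the chain spanned 0. Fdps, which joins isoprenoid units into farnesyl diphosphate, had 72 and 90 UMIs (log2 −0.24), and Ggps1, which extends them for protein prenylation, had 33 and 53 UMIs (log2 0.12).

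The later steps, from the making of squalene to cholesterol, were lower as a sum and uneven among themselves. Their 11 genes summed to 571 and 628 UMIs, or 272.8 and 202.9 CPM (log2 −0.43, −0.59 to −0.26). Set against the early steps, which needs no scaling between libraries, the difference was −0.27 (−0.53 to 0.0004) with all barcodes kept. Fdft1, the squalene synthase, had 16 and 21 UMIs, and Sqle, the squalene epoxidase that limits the rate of these later steps, had 15 and 28 UMIs. Both had intervals that spanned 0.

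Among the demethylation steps, Cyp51 had 57 and 59 UMIs (log2 −0.51, −1.07 to 0.04) and Nsdhl 23 and 18 UMIs (log2 −0.92, −1.89 to 0.04). Msmo1, the sterol C4-methyl oxidase at chr8:64718139-64733792 (GRCm38, GENCODE gene bounds, as for all genes below), had 153 and 128 UMIs, or 73.1 and 41.4 CPM (log2 −0.82, −1.17 to −0.47). Its level was lower in the injured library by less than 2-fold, with the interval below 0.

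Sc5d, the sterol C5-desaturase at chr9:42251595-42264256, had 92 uninjured and 62 injured UMIs, or 43.95 and 20.03 CPM (log2 −1.13, −1.62 to −0.65). It was found in 83 uninjured and 59 injured cells, with at most 3 UMIs in any cell. Ebp, the sterol isomerase that acts just before it at chrX:8185329-8193512, had 147 and 224 UMIs (log2 0.04, −0.26 to 0.35). Dhcr7, which makes the last reduction, had 56 and 73 UMIs (log2 −0.18, −0.70 to 0.35). Msmo1 and Sc5d together held 245 UMIs against 203 of Ebp and Dhcr7 in uninjured cells, and 190 against 297 in injured cells. That is 1.21 and 0.640 molecules of the first pair per molecule of the second, a log2 difference of −0.92 (−1.30 to −0.53), with the pairs chosen after their values were seen.

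**Figure D2:**
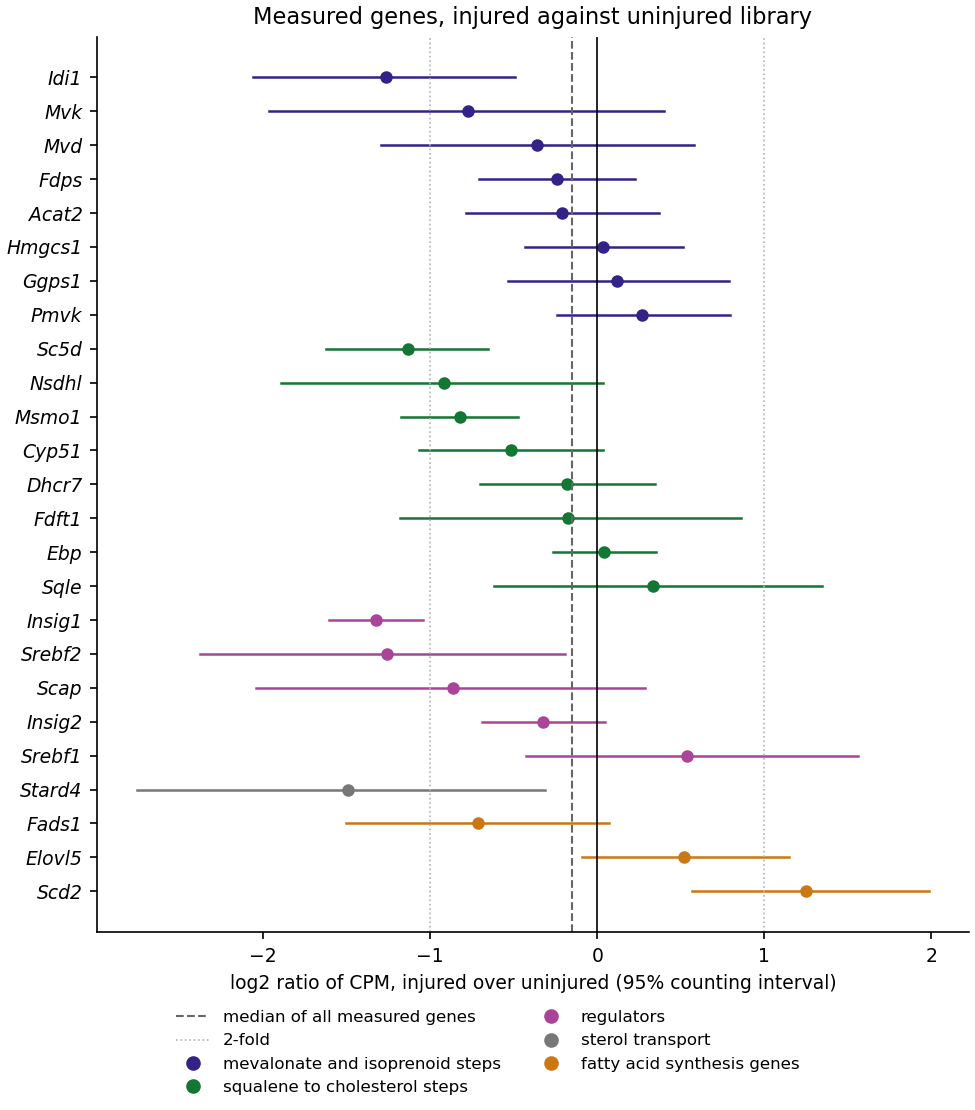
log2 ratio of CPM, injured over uninjured, of the 25 measured genes, coloured by role, with exact 95% counting intervals, the median of all measured genes (dashed, −0.15) and 2-fold limits (dotted). Insig1 (−1.32) and Scd2 (1.25) lie past 2-fold on opposite sides, and most intervals of the enzymes cross 0.

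The largest difference in CPM among the 30 genes was that of Insig1, which encodes an endoplasmic reticulum protein that retains SCAP when sterols are plentiful. Insig1 (ENSMUSG00000045294, chr5:28071363-28078662) had 286 uninjured and 169 injured UMIs, or 136.6 CPM (121.3 to 153.4) and 54.6 CPM (46.7 to 63.5). The log2 ratio was −1.32 (−1.61 to −1.04), or 2.5-fold lower in the injured library. It was the first of the 30 genes by UMIs in the uninjured library and the second, after Ebp, in the injured one. A UMI of Insig1 was present in 184 of 695 uninjured and 113 of 577 injured cells, and the 10 cells with most of it held 17.5% and 24.3% of its UMIs.

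Insig2, the paralogue that does not depend on SREBP in the same way, had 116 and 137 UMIs, or 55.4 and 44.3 CPM (log2 −0.32, −0.69 to 0.04). There were 2.47 Insig1 molecules per Insig2 molecule in uninjured and 1.23 in injured cells, a log2 difference of −0.999 (−1.47 to −0.53). Against the sum of the sterol enzymes, Insig1 went from 0.314 to 0.157 molecules per molecule, a log2 difference of −1.002 (−1.31 to −0.69).

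The SREBP genes themselves were scarce. Srebf2 had 21 and 13 UMIs, or 10.0 and 4.20 CPM (log2 −1.26, −2.38 to −0.19), and Srebf1 had 14 and 30 UMIs, or 6.69 and 9.69 CPM (log2 0.53, −0.42 to 1.56). The ratio of Srebf2 to Srebf1 molecules was 1.5 in uninjured and 0.433 in injured cells, a log2 difference of −1.79 (−3.30 to −0.30). Scap had 16 and 13 UMIs (log2 −0.86, −2.04 to 0.28). Stard4, a carrier of sterol between membranes, had 19 and 10 UMIs, or 9.08 and 3.23 CPM (log2 −1.49, −2.76 to −0.31).

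Genes that work with these regulators but are not among the 30 had ratios below 0 where measured, as had 5336 of all 9066 measured genes. Of 6 listed, 5 were measured and 2 were at least 2-fold lower, against 11.5% of all measured genes. These were Mbtps1 with 26 and 17 UMIs (log2 −1.18, −2.15 to −0.24) and Mbtps2 with 37 and 25 UMIs (log2 −1.13, −1.92 to −0.36). They encode the 2 proteases that release SREBPs. Erlin2 had 31 and 39 UMIs (log2 −0.23, −0.95 to 0.50).

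Fatty acid genes lay the other way as a sum. The 5 genes held 93 uninjured and 195 injured UMIs, or 44.4 CPM (35.9 to 54.4) and 63.0 CPM (54.5 to 72.5), a log2 ratio of 0.50 (0.14 to 0.88). Of the 3 measured genes 1 was at least 2-fold higher (against 7.22% of all measured genes) and 0 at least 2-fold lower (against 11.5%). Their median was 0.52. Per sterol enzyme molecule there were 0.102 fatty acid gene molecules in uninjured and 0.181 in injured cells, a log2 difference of 0.83 (0.44 to 1.22). Without Scd2 this difference was 0.46 (−0.0011 to 0.93), so that Scd2 supplied much of it.

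Scd2, a stearoyl-CoA desaturase that makes oleate and is abundant in glia, had 23 and 81 UMIs, or 10.99 CPM (6.97 to 16.5) and 26.2 CPM (20.8 to 32.5). Its log2 ratio was 1.25 (0.57 to 1.99). Scd2 (chr19:44293674-44306864) was found in 21 uninjured and 59 injured cells. Elovl5, which elongates polyunsaturated fatty acids, had 34 and 72 UMIs (log2 0.52, −0.09 to 1.15). Fads1, the delta-5 desaturase, had 31 and 28 UMIs (log2 −0.71, −1.50 to 0.07), below 0 beside Scd2 above it. Fasn, the fatty acid synthase, was under the minimum with 5 and 13 UMIs, and Fads2 had 0 and 1.

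Of 10 other fatty acid genes 5 were measured, and none passed 2-fold. Hsd17b12, which reduces elongation intermediates, had 155 and 440 UMIs (log2 0.94, 0.67 to 1.21). Acly, which supplies acetyl-CoA, had 89 and 113 UMIs (log2 −0.22, −0.63 to 0.20), and Tecr had 382 and 562 UMIs (log2 −0.01, −0.20 to 0.18). By contrast, among 10 measured genes of sterol efflux and esterification the median was 0.80. None was at least 2-fold lower and 4 were at least 2-fold higher (against 7.22% of all measured genes), namely Ch25h (log2 5.46), Abcg1 (3.003), Apoe (2.90) and Abca1 (1.59). Mylip (−0.65, −0.85 to −0.45) and Nr1h2 (−0.50, −0.86 to −0.13) of the same list lay below 0. Apoe UMIs were found in 577 of 577 injured cells, and the efflux list was composed with earlier results of these data known.

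Injured cells were deeper, so the genes were compared at equal depth. After every cell was thinned to 1500 UMIs (604 uninjured and 567 injured cells, with 91 and 10 shallower cells left out), Insig1 was found in 17.5% of uninjured cells (14.6% to 20.8%) and 7.58% of injured cells (5.54% to 10.1%). Without thinning the shares were 26.5% and 19.6%. A UMI of any sterol enzyme was found in 43.2% (39.2% to 47.3%) and 39.9% (35.8% to 44.0%) of thinned cells. For the fatty acid genes the shares were 7.28% (5.34% to 9.66%) and 8.64% (6.46% to 11.3%). The intervals were apart for Insig1 and overlapped for both sums. No cell type that should lack these genes was used as a background, and the part of free RNA in the shares was not tested.

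Averaged over all possible thinnings the log2 ratio was −1.12 for Insig1, −0.81 for Sc5d, −0.70 for Msmo1 and 0.99 for Scd2. It was −0.24 for the sterol enzymes and 0.33 for the fatty acid genes. Each was nearer to 0 than with all UMIs.

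Sterol enzyme levels varied with cell depth within each library. In cells of 1500 to under 2500, 2500 to under 4000 and 4000 to under 6000 UMIs the sum went from 487 to 435 to 388 CPM in the uninjured library and from 520 to 403 to 331 CPM in the injured one. Within these bands the log2 ratio between libraries was 0.09 (−0.37 to 0.55), −0.11 (−0.34 to 0.11) and −0.23 (−0.50 to 0.05), so each interval spanned 0. All bands keep the 7 injured barcodes with oligodendrocyte precursor markers described below. These had 1571 to 7625 UMIs each and held 105 of the 1079 injured sterol enzyme UMIs. Their part in the trend with depth and in these ratios was not tested. For Insig1 the same bands gave −1.22 (−2.62 to −0.05), −0.54 (−0.98 to −0.11) and −1.01 (−1.61 to −0.44). Its interval was below 0 in each. Insig1 also varied with depth within a library: over the same bands and the cells of 6000 or more UMIs it was at 146.1, 153.8, 122.2 and 41.5 CPM in the uninjured library (the last on 3 UMIs) and at 62.8, 105.7, 60.5 and 33.9 CPM in the injured one. The uninjured library had 10 cells with 6000 or more UMIs and the injured library 189, so the deepest cells have hardly a counterpart. How much of the sterol difference depth carries was not tested.

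**Figure D3:**
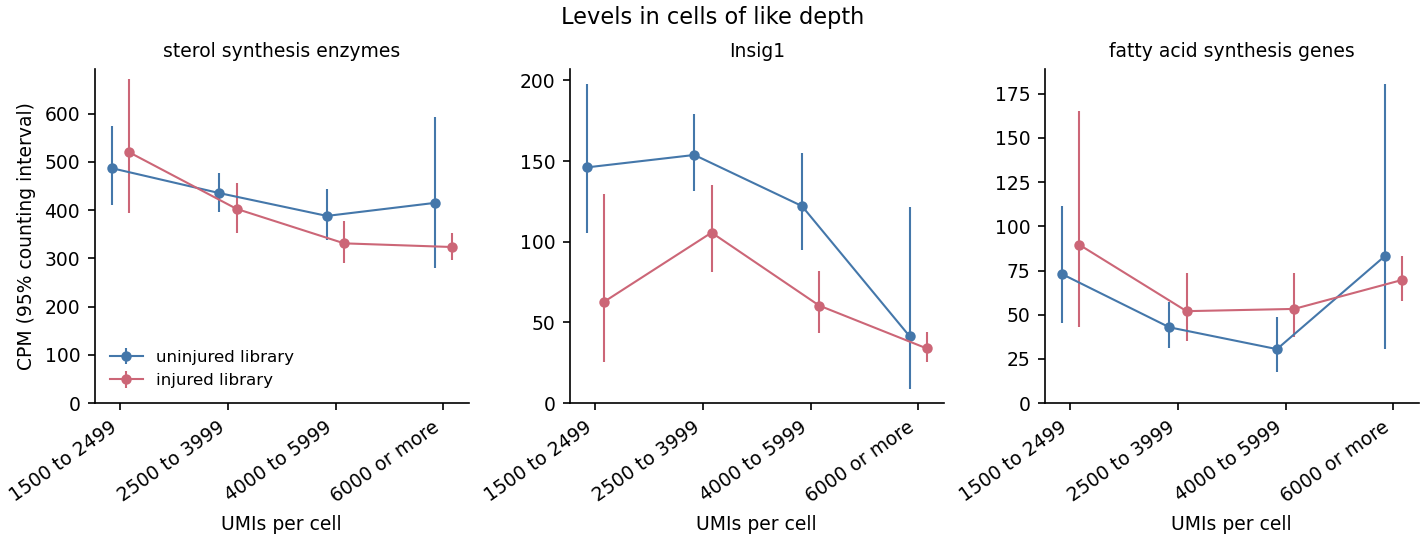
CPM of the sterol enzymes, of Insig1 and of the fatty acid genes in cells grouped by UMIs per cell, with exact 95% Poisson intervals, uninjured in blue and injured in red. All kept barcodes are included, also the 7 injured ones with oligodendrocyte precursor markers. The intervals of the sterol sums overlap in each band, with 415.0 and 323.6 CPM in the deepest, and the Insig1 ratio has an interval below 0 in the first 3 bands.

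In cells with at least 2500 and fewer than 6000 UMIs, Insig1 had a log2 ratio of −0.81 (−1.16 to −0.48), Sc5d −0.81 (−1.46 to −0.19), Msmo1 −0.59 (−1.07 to −0.12) and Idi1 −1.25 (−2.52 to −0.12). The sterol sum was at −0.20 (−0.38 to −0.03), with the interval below 0. Depth was not equal within this band: 331 uninjured and 180 injured cells had under 4000 UMIs, and 121 and 145 had 4000 or more. The later steps were at −0.36 (−0.58 to −0.14) and the early steps at 0.04 (−0.24 to 0.31). These sums keep the barcodes with oligodendrocyte precursor markers in the band. Over all depths, without barcodes with other cell type markers, the later steps were at −0.51 (−0.68 to −0.34). The early steps were then at −0.37 (−0.58 to −0.15). In the band of 2500 to 6000 UMIs Scd2 was at 0.73 (−0.28 to 1.76), an interval that no longer excluded 0, and 57 of its 81 injured UMIs came from cells with 6000 or more UMIs. Elovl5 was at 0.86 (0.05 to 1.69) in these cells. The fatty acid sum was at 0.45 (−0.07 to 0.96), an interval that spanned 0. In the part of the band under 4000 UMIs the intervals of Sc5d (log2 −0.37) and Msmo1 (−0.46) spanned 0. In the deeper part Sc5d was at −1.32 (−2.58 to −0.16) and Msmo1 at −0.61 (−1.40 to 0.17).

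A small number of injured barcodes held many of the sterol transcripts. In 7 injured and 0 uninjured barcodes there were at least 3 UMIs from at least 2 of 5 oligodendrocyte precursor markers (Pdgfra, Cspg4, Olig1, Olig2 and Ptprz1), and each of the 7 had at least 3 different ones. Oligodendrocyte precursors are the cells that rebuild myelin, and making myelin needs much cholesterol. The 7 barcodes held 0.804% of the UMIs of the injured library and 105 of its 1079 sterol enzyme UMIs, or 9.73%. Their sterol level was 4219 CPM (3450 to 5107), against 320 CPM in the 548 barcodes with no marker of another cell type, 13.2-fold higher (10.7 to 16.2). Their microglia markers summed to 2049 CPM, against 30879 CPM. The labels describe no population of this kind in the sort.

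The level differed from barcode to barcode and from gene to gene. The 7 barcodes had between 5 and 38 sterol enzyme UMIs (median 13) at a median depth of 3254 UMIs, and the 548 barcodes had a median of 1 and at most 14. All 7 lay between 1537 and 7002 CPM, and 8 of the 548 exceeded the lowest of them. The early steps were 19.7-fold higher (14.8 to 25.8) and the later steps 8.94-fold higher (6.40 to 12.2). Sqle had 12 of its 28 injured UMIs in the 7 barcodes, Acat2 12 of 60, Hmgcs1 18 of 97 and Scd2 8 of 81. Ebp, with 1 of 224, and Insig1, with 6 of 169, had few. In 15 barcodes with oligodendrocyte markers (Mbp and others) but no precursor markers, the sterol level was 302.8 CPM (199.5 to 440.5), close to that of the remaining barcodes.

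**Figure D4:**
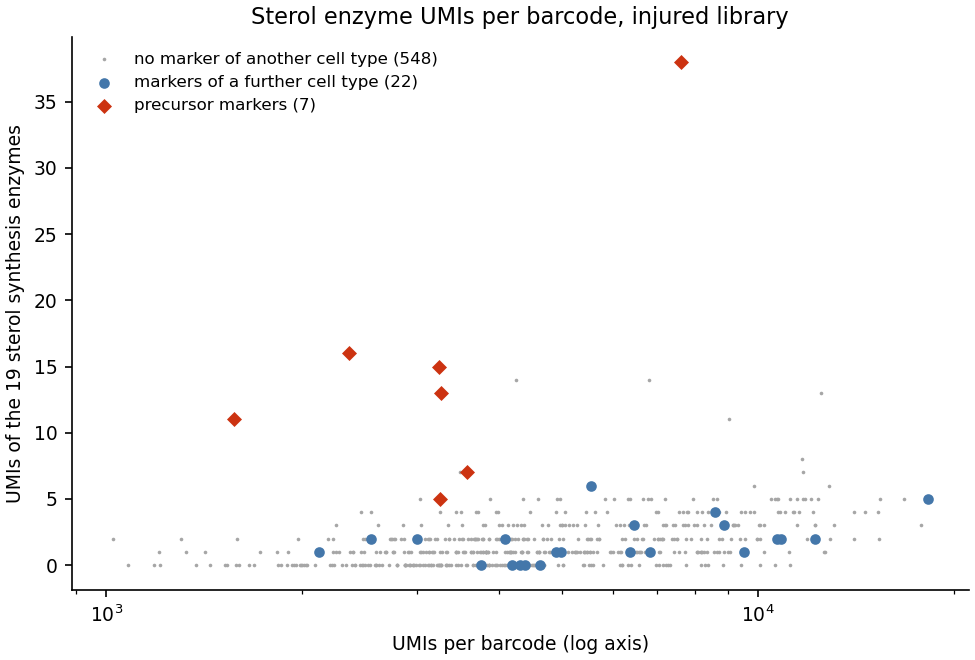
UMIs of the 19 sterol enzymes against all UMIs of each barcode (log axis) in the injured library, with barcodes of oligodendrocyte precursor markers in red, those with markers of a further cell type in blue and all others in grey. The 7 red barcodes hold 5 to 38 sterol UMIs at 1571 to 7625 UMIs per barcode, and the 548 grey barcodes, over all depths, have a median of 1.

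Without the 7 barcodes the sterol enzymes were at 317.2 CPM in the injured library, and the log2 ratio to uninjured was −0.46 (−0.59 to −0.33) in place of −0.32. The early steps then stood at −0.36 (−0.58 to −0.15), with the interval below 0, and the later steps at −0.52 (−0.69 to −0.35). Sqle went from 0.34 to −0.46 (−1.57 to 0.66), Hmgcs1 from 0.04 to −0.25 (−0.74 to 0.25) and Idi1 from −1.26 to −1.67 (−2.56 to −0.83). Insig1 was at −1.36 and Scd2 at 1.11 (0.42 to 1.86). With all 29 barcodes of other cell type markers left out in each library, Scd2 was at 0.96 (0.24 to 1.74), under 2-fold, the fatty acid sum at 0.40 (0.02 to 0.79) and Insig1 at −1.32.

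Whether sterol genes were found in the same cells also turned on these barcodes. Across 567 injured cells thinned to 1500 UMIs in the same random draw, the early and the later steps had a Pearson r of 0.36. Across the 538 cells with no other marker r was 0.06. In uninjured cells r was 0.11 with and without such barcodes. The variance of the sterol UMIs per thinned cell was 2.04 times their mean in injured cells and 1.14 times without the marker barcodes, against 1.14 in all uninjured cells. Without the marker barcodes the mean of sterol UMIs per cell after thinning was 0.612 in uninjured and 0.524 in injured cells. With so few UMIs per cell, a variance near the mean cannot tell whether cells differ in level. Cells of a library share its free RNA and its processing.

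Levels were next compared between groups of cells within a library, with the other-marker barcodes left out and gates set on genes outside the 30. P2ry12, a receptor of homeostatic microglia, was absent after thinning from 197 injured cells and had 3 or more UMIs in 140, with 201 cells of 1 or 2 UMIs in neither class. Insig1 was at 43.7 CPM (33.1 to 56.6) in the cells without P2ry12 and 96.3 CPM (71.2 to 127.3) in those with it, a log2 ratio of −1.14 (−1.72 to −0.56). Sc5d was at 15.3 and 33.4 CPM (log2 −1.12, −2.13 to −0.10). The sterol sum was at 320.6 and 322.2 CPM (log2 −0.01, −0.27 to 0.26). Median depth was 6422 UMIs without and 3444.5 with P2ry12, and in the injured library Insig1 was lower in cells from 4000 UMIs upward than in those of 2500 to under 4000 (above). The part of depth in these differences was not tested.

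Between libraries, within the cells with 3 or more P2ry12 UMIs (449 uninjured and 140 injured), Insig1 was at 143.6 and 96.3 CPM (log2 −0.58, −1.06 to −0.12). The sterol enzymes there were at 421.7 and 322.2 CPM (log2 −0.39, −0.65 to −0.14). In the cells without P2ry12 (25 uninjured and 197 injured) Insig1 was at 83.5 and 43.7 CPM (log2 −0.93, −2.01 to 0.35). The lower Insig1 level was thus seen in cells with P2ry12, with a log2 ratio nearer to 0 than the −1.32 of the whole libraries. In the uninjured library the cells without P2ry12 also had the lower Insig1 level, 83.5 against 143.6 CPM, on 8 UMIs (log2 −0.78, −2.01 to 0.22).

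**Figure D5:**
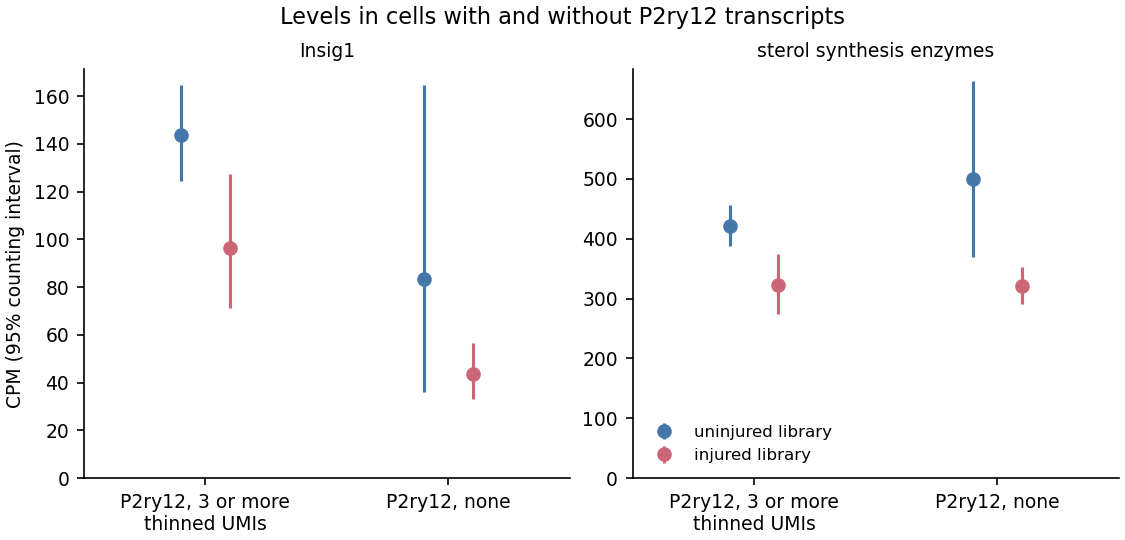
CPM of Insig1 and of the sterol enzymes in cells with 3 or more and with no P2ry12 UMIs after thinning, uninjured in blue and injured in red, with exact 95% Poisson intervals. Insig1 was highest in uninjured cells with P2ry12 (143.6 CPM) and lowest in injured cells without it (43.7 CPM), while the sterol sum in the injured library was alike in both classes.

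Gpnmb, a marker of lipid-laden phagocytes, was found in 35 injured cells after thinning. Their sterol enzymes were at 222.3 CPM (167.0 to 290.1), against 327.6 CPM in the 503 cells without it (log2 −0.56, −0.98 to −0.16). Insig1 was at 24.7 and 55.8 CPM on 6 and 149 UMIs (log2 −1.18, −2.65 to −0.02). The Gpnmb cells had a median of 7504 UMIs against 4338, and 20 of the 35 had exactly 1 UMI of it. The part of depth in this difference was not tested.

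In 45 dividing cells, those with at least 2 different genes of the G2 and M phases, the sterol enzymes were at 322.6 CPM against 318.4 CPM in the rest (log2 0.02, −0.30 to 0.32). With the barcodes of other cell type markers kept in, the same gate gave 469.9 and 332.9 CPM (log2 0.50, 0.24 to 0.74). The higher sterol level of dividing cells was therefore not seen without 5 marker barcodes that the gate had taken in. At the lower edge of the gate, 23 of the 45 cells had exactly 2 of the genes.

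Interferon-response genes marked 233 injured cells with at least 3 UMIs. Insig1 was at 42.5 CPM there and 61.5 CPM in the other 305 cells (log2 −0.53, −1.04 to −0.04), and Scd2 at 12.6 and 28.6 CPM (log2 −1.18, −2.10 to −0.34). Sc5d was at 15.8 and 21.3 CPM (log2 −0.44, −1.31 to 0.40) and the sterol sum at 297.7 and 335.1 CPM (log2 −0.17, −0.36 to 0.02). Median depths were near each other, at 4573 and 4378 UMIs. In the uninjured library 33 such cells had 6 Insig1 UMIs (50.9 CPM, against 140.6 CPM in the others, log2 −1.47, −2.93 to −0.32) and 14 Sc5d UMIs (118.8 against 39.5 CPM, log2 1.59, 0.64 to 2.43). Their sterol sum was at 509.1 against 426.3 CPM (log2 0.26, −0.15 to 0.64). Insig1 was thus on the lower side of this gate in both libraries, and 52 injured and 17 uninjured cells stood at exactly 3 UMIs.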

How the data were processed

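The authors deposited 1 matrix of UMI counts (whole numbers, genes by cell barcodes) for each library, from the 10x Chromium 3′ version 2 chemistry per the labels' protocols. The submitters' processing notes name Cell Ranger 2.0.1, STAR and Seurat 2.1.0, with the builds GRCm38.p5 and mm10. How these were applied and which annotation was counted is not given in the sources used here. Per the labels, 2500 cells were sorted per library and 705 and 580 recovered, which equals the barcodes in the deposited matrices.

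Cells were kept from 200 genes upward and up to 10% mitochondrial UMIs. This removed 10 uninjured and 3 injured barcodes. Scatter gates at the sort were used against doublets per the labels, and no doublet caller was run. UMIs were summed per library and divided by all its UMIs (CPM). Intervals of ratios come from the Clopper-Pearson interval of the share of UMIs in the injured library, that of a CPM value is exact Poisson and that of a share of cells is Clopper-Pearson. On counts simulated as Poisson draws, the model behind the intervals, they covered their true value at about the stated rate. This does not check the intervals for spread beyond counting error. UMI sums compare 1 gene between cells, not genes with each other in absolute terms, since 3′ capture differs by gene.

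All 30 genes are accounted for, and other pathway genes are named by size of ratio, at most 6 per list, with Tecr added after its values were seen. Some genes that this rule covers are not reported here. The genes, lists and gates were chosen with earlier results of these data known. Barcodes with other cell type markers had at least 3 UMIs from at least 2 markers of a type. Gene positions are from GENCODE on GRCm38, promoters from RefSeq on GRCm38.p6. Alternatives covered scaling (TMM of edgeR 4.0.16, size factors of DESeq2 1.42.0), filters, gene minimum, depth and cell subsets. Python 3.11.15, numpy 2.4.6, scipy 1.17.1 and R 4.3.3 were used.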

Additional observations from a re-analysis of the deposited data

How the results depend on the processing

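No paired analysis was possible because each group has 1 library, and no library could be left out for the same reason. No ratio past 2-fold changed sign under any alternative run, and 311 of 324 single gene ratios moved by less than their counting interval. The sterol enzymes' log2 ratio of summed CPM, −0.32, became −0.17 with TMM, −0.14 with DESeq2 size factors and −0.46 without barcodes with other cell type markers. TMM and DESeq2 factors moved every ratio by 0.15 and 0.19, close in size to the median of all genes. The sterol ratio was 0.0015 in 1 random thinning to 1500 UMIs, against −0.24 averaged over all thinnings, and the enzymes' median, −0.23, was 0.02 there. These values keep all barcodes, with means of 0.604 uninjured and 0.605 injured sterol UMIs per cell in that thinning. Without the other-marker barcodes the means of the same draw were 0.612 and 0.524. The count of genes at least 2-fold higher, 1, became 3 in that thinning, 0 averaged over all thinnings, 0 without barcodes with other cell type markers, 0 in cells of 2500 to 6000 UMIs and 2 without the 10 cells with most UMIs of each gene. The 3 were Sqle (4 and 10 thinned UMIs), Fdft1 (3 and 8) and Srebf1 (5 and 10). Scd2 was not among them, at 0.68. The count at least 2-fold lower, 5, became 2 with a gene minimum of 100 UMIs, which left 13 genes. Over 13 alternatives Insig1 ranged from −1.45 to −0.81 and passed 2-fold in 12. Scd2 ranged from 0.68 to 1.68 and passed it in 9, and Sc5d from −1.26 to −0.51 in 7. In cells with Y-linked UMIs and no Xist UMI (235 and 147) Insig1 was at −1.26 and the sterol sum at −0.39. Settings chosen after seeing the data were the average over thinnings, the band of 2500 to 6000 UMIs, the depth bands, and leaving the precursor-marker barcodes or other-marker barcodes out of the groups of cells. Depth limits Srebf1, Srebf2, Scap, Mvk, Mvd, Fdft1, Sqle, Nsdhl and Stard4, whose UMIs summed to under 50 over both libraries.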
